A study of Homo sapiens with 15 samples.

Results

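The 10 genes described here are neighbours of NF1 on chromosome 17, in band 17q11.2. They are EVI2B and EVI2A, which lie inside NF1, and CPD, CRLF3, ATAD5, ADAP2, RNF135, RAB11FIP4, UTP6 and SUZ12, which flank it. They were taken from a list of symbols matched to Ensembl identifiers and are 10 of the 60721 genes in the count table. Their measured levels were not used to pick them, although earlier results of these data were known. All 10 had enough counts to be among the 17457 genes tested. The question was whether RNA of nearby genes differed in cells whose NF1 gene had been edited.

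The cells were MCF10, a human breast epithelial line that is not tumorigenic, grown untreated in medium with horse serum, EGF, hydrocortisone, cholera toxin and insulin. Polyadenylated RNA was sequenced in 3 biological replicates from each of 5 genotypes: unmodified parental cells, an empty-vector control, and NF1 mutants made with guide RNA 1, with guide RNA 2, or with both guides. Whether each edited line was a clone or a pool, which vector and nuclease were used, and where the guides cut were not given in the sources used here, so each line stands for a single editing experiment. Levels are CPM, the reads of a gene scaled to the total of its library.

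NF1 encodes neurofibromin, a protein that speeds the return of RAS to its inactive form. People with neurofibromatosis type 1 who carry a microdeletion lose NF1 together with many of its neighbours, among them RNF135, ADAP2, ATAD5, CRLF3, EVI2A, EVI2B, RAB11FIP4, UTP6 and SUZ12. EVI2A, EVI2B and OMG are nested in an NF1 intron and are read from the opposite strand, so their RNAs are separate from that of NF1.

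On GRCh38 (GENCODE 29), NF1 spans chr17:31094927-31382116 on the plus strand. EVI2B, at chr17:31303766-31314112, and EVI2A, at chr17:31317560-31321884, lie within those limits on the minus strand. Before NF1 come CPD at chr17:30378905-30469989, CRLF3 at chr17:30769388-30824776 on the minus strand, ATAD5 at chr17:30831970-30895869, ADAP2 at chr17:30906344-30959322 and RNF135 at chr17:30968785-30999911. After it come RAB11FIP4 at chr17:31391624-31538217, UTP6 at chr17:31860899-31901765 on the minus strand and SUZ12 at chr17:31937018-32001045. All are protein-coding. The gap to the NF1 body was smallest for RAB11FIP4, at 9.5 kb, and largest for CPD, at 624.9 kb.

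Reads can be shared between some of these genes and others. SUZ12 has a partial copy, the transcribed pseudogene SUZ12P1, which lies on the far side of NF1 and overlaps the body of CRLF3 on the opposite strand without sharing exon bases with it. Of the 2217 coding bases of SUZ12, 1012 (45.6%) lay in 60-base windows that differ from a SUZ12P1 transcript by at most 6 bases, all of them within coding bases 1 to 1023. Over those bases the copies were 97.6% identical. The pair of stretches printed next shows how little separates them: SUZ12 coding bases 95 to 154 and SUZ12P1 transcript bases 263 to 322, both 5′ to 3′ from GENCODE 29, with the 3 differing bases in capitals.
SUZ12: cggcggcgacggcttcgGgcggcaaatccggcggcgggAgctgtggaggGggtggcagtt
SUZ12P1: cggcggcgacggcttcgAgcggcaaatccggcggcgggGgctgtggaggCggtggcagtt
Over all SUZ12 transcripts, 7.66% of the 50-base windows occur unchanged, on the same strand, in a transcript of another gene, so part of the SUZ12 count is uncertain. The shares were 22.97% for EVI2A and 30% for EVI2B, in both cases owing to an annotated readthrough transcript (ENSG00000265118) that joins them and that had 3 counts over all 15 libraries. For CRLF3 the same-strand share was 2.01%, and for the other 6 neighbours it was 1.25% or lower. With windows shared on either strand counted, it was 13.13% for ADAP2, 7.21% for CRLF3, 5.42% for RAB11FIP4 and 3.87% for ATAD5. On that measure SUZ12 had 7.7%, UTP6 1.76%, CPD 0.27% and RNF135 0.08%, and EVI2A and EVI2B were unchanged. EVI2A also shares 152 exon bases with an NF1 exon on the opposite strand, and ADAP2 shares 301 with TEFM. How the counting used strand was not given in the sources used here, so reads from such opposite-strand pairs cannot be told apart.

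The library totals ran from 46129559 to 78976917 counts. The levels of NF1 itself checked the labels: the 9 edited libraries had 26 to 51.3 CPM and the 6 unedited ones 115.3 to 158.7 CPM. Relative to the empty-vector mean, NF1 RNA was 38.3% with guide 1, 23.8% with guide 2 and 22.7% with both guides. Basal epithelial KRT5 was high everywhere, at 624.7 CPM or more, but 2 of the listed markers, TP63 and CDH1, were close to absent in some libraries. Others on the same lists were present in every library: ITGB4 at 372.7 to 832.3, LAMB3 at 467.8 to 1706.8, KRT8 at 70.2 to 176.1 and KRT18 at 131.4 to 203.6 CPM. KRT14 (6.44 to 1146.7 CPM), KRT17 (24.1 to 1622.1 CPM) and EPCAM (1.85 to 102.6 CPM) varied widely. TP63 and CDH1 thus do not stand for their whole lists. TP63, the basal transcription factor, was between 0.0542 and 0.815 CPM in the 3 guide 1 libraries, guide 2 replicates 1 and 3 and parental replicate 2, and the adhesion gene CDH1 was between 0.0191 and 1.79 CPM in the same libraries. In the other 9 libraries TP63 was at least 7.83 CPM and CDH1 at least 14.8 CPM. Fibroblast markers summed to 21 CPM or less, and of the 4 endothelial markers CDH5 had at most 1 count and VWF at most 11, whereas PECAM1 had 37 to 133 counts and KDR 92 to 868. KDR was higher in guide 1 than in empty-vector cells (8.45 ± 2.9 against 2.32 ± 0.534 CPM, SD, n = 3 each, edgeR adjusted p 0.0352). The guide 2 replicates were unlike each other: replicate 2 had 75.8 CPM of TP63 and 91.4 CPM of CDH1, with NF1 at 31.4 CPM. Values of the neighbours for guide 2 against the empty vector are given with and without that library.

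None of the 10 neighbours passed the test in any of the edited lines. By edgeR's quasi-likelihood test at an adjusted p under 0.05, 0 of 10 were called in guide 1 against empty-vector cells, where 5.88% of all tested genes were called. At an unadjusted p under 0.05 there were 2, CPD and RAB11FIP4, against 21.4% of all genes, and DESeq2 called those 2 (11.1% of all genes by DESeq2). In guide 2 against empty vector 0 of 10 were called (3.94% of all genes), with 1, CPD, at an unadjusted p under 0.05 (18.9% of all genes) and the same gene called by DESeq2 (7.88% of all genes by DESeq2). With both guides 0 of 10 were called (0.962% of all genes), 1, CPD, passed the unadjusted threshold (14% of all genes), and DESeq2 called 0 (4.33% of all genes by DESeq2). Apart from RAB11FIP4 and ADAP2, which were measured with wide intervals, every neighbour had a 95% interval apart from that of NF1 in all 3 lines. That was 8 of 10 genes for guide 1, 9 of 10 for guide 2 and 8 of 10 for both guides.

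The remaining comparisons gave the same count by edgeR. Against parental cells 0 of 10 were called for guide 1 (0.149% of all genes), 0 for guide 2 (0.0516%) and 0 for both guides (0.195%). At an unadjusted p under 0.05 there were 4 (RAB11FIP4, ATAD5, CRLF3 and SUZ12) for guide 1, 0 for guide 2 and 0 for both guides, against 19.9%, 7.37% and 9.98% of all genes. DESeq2 called 0 in each (4.09%, 0.841% and 2.11% of all genes by DESeq2). Between the unedited groups, parental and empty vector, edgeR called 0 of 10 (4.37% of all genes), 4 (CPD, EVI2A, ATAD5 and SUZ12) passed the unadjusted threshold (19.8% of all genes), and DESeq2 called 1, ATAD5 (9.39% of all genes by DESeq2). When the 3 edited lines were averaged and set against the average of the unedited groups, edgeR called 0 (1.51% of all genes), 1 (CPD) passed the unadjusted threshold (15.8%), and DESeq2 called 1, CPD (5.33% of all genes by DESeq2). Between edited lines edgeR and DESeq2 each called 0 of 10: guide 1 against guide 2 (0.0401% of all genes), both guides against guide 1 (0.275%) and both guides against guide 2 (0.149%). There 2 genes (RAB11FIP4 and CRLF3), 0 and 0 passed the unadjusted threshold, against 15.2%, 13% and 5.8% of all genes. By DESeq2, 1.17%, 2.34% and 0.861% of all genes were called in these comparisons. The comparisons with the empty vector share its 3 libraries, so their values are not independent of each other.

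Against the empty vector, the sizes of the differences were close to those of genes in general. The median log2 fold change of the 10 neighbours against the empty vector was -0.13 for guide 1, 0.07 for guide 2 and 0.01 for both guides, beside 0.02, 0.03 and 0.00 over all tested genes. The median absolute log2 fold change was 0.20, 0.20 and 0.21, beside 0.21, 0.21 and 0.17. Against parental cells the median was -0.24, -0.03 and -0.17, beside 0.00, 0.02 and -0.02. The absolute median there was 0.32, 0.15 and 0.23, beside 0.23, 0.14 and 0.16. Of the 10 neighbours, 8, 5 and 8 were lower than in parental cells, and 8, 4 and 5 lower than with the empty vector. For the edited lines averaged against the unedited groups, the median was -0.11, beside 0.01, with 9 of 10 lower. Its absolute median was 0.12, beside 0.12. Some neighbours had 3 edited libraries all above or all below the 3 empty-vector libraries: 4 for guide 1, 3 for guide 2 and 6 for both guides. Such separation was found for 36.2%, 23.1% and 37.7% of all tested genes.

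**Figure D1:**
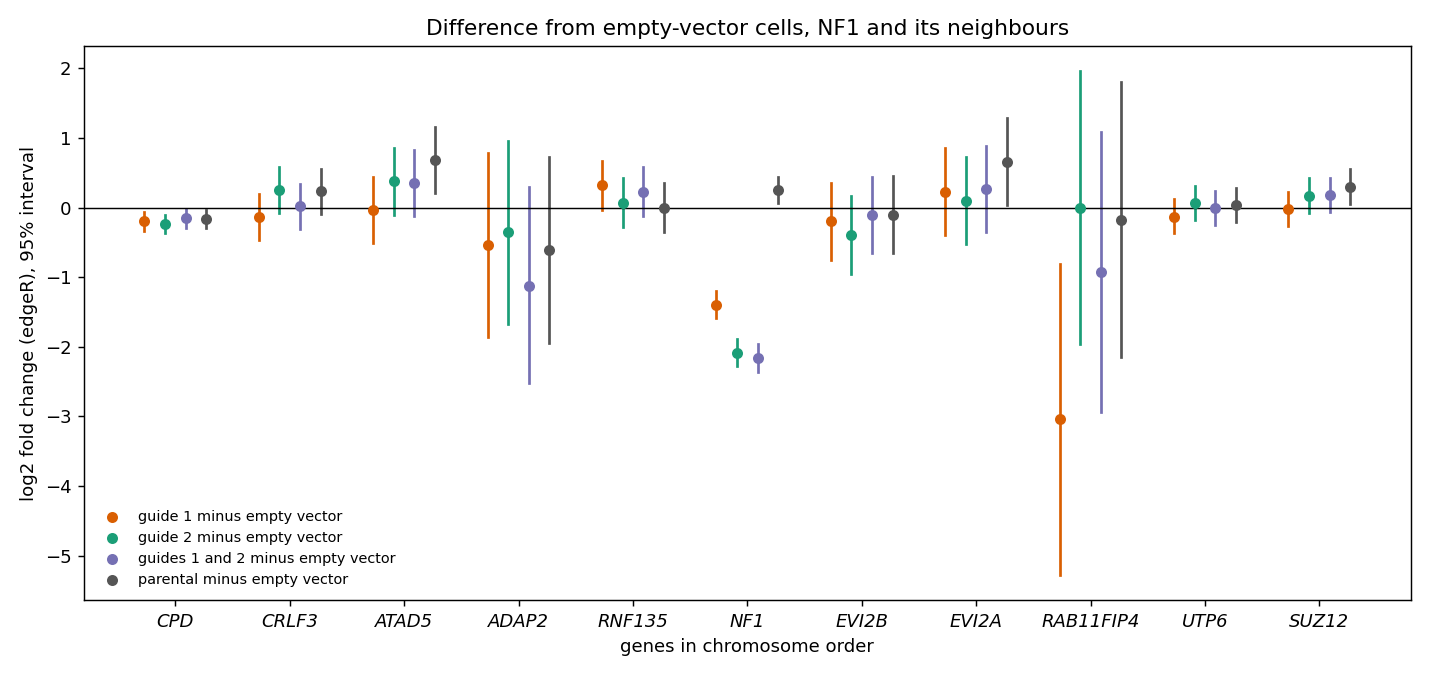
The vertical axis gives the edgeR log2 fold change against empty-vector cells, with its 95% interval, for each edited line and for parental cells. NF1 and its 10 neighbours stand in chromosome order along the horizontal axis. NF1 lies between -1.40 and -2.16 in the edited lines and at 0.25 in parental cells. Most neighbours lie near 0 with short intervals, and RAB11FIP4 and ADAP2 have long ones.

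Per kilobase of exon, averaged over the 15 libraries, SUZ12 had the highest level of the 10, at 14 ± 1.76 CPM per kb (SD, n = 15). It was followed by CPD at 12.4 ± 0.816 and UTP6 at 11.1 ± 1.15 CPM per kb (SD, n = 15). SUZ12 overlapped CPD, and CPD overlapped UTP6, within 1 SD. RNF135, at 8.32 ± 1.22, and CRLF3, at 6.37 ± 1.09 CPM per kb, overlapped as the next pair, and EVI2B, at 4.23 ± 0.812, and ATAD5, at 3.34 ± 0.878 CPM per kb, the pair after it. EVI2A stood alone at 1.56 ± 0.439 CPM per kb. RAB11FIP4, at 0.112 ± 0.116, and ADAP2, at 0.0496 ± 0.0281 CPM per kb, were the lowest and overlapped each other within 1 SD.

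**Figure D2:**
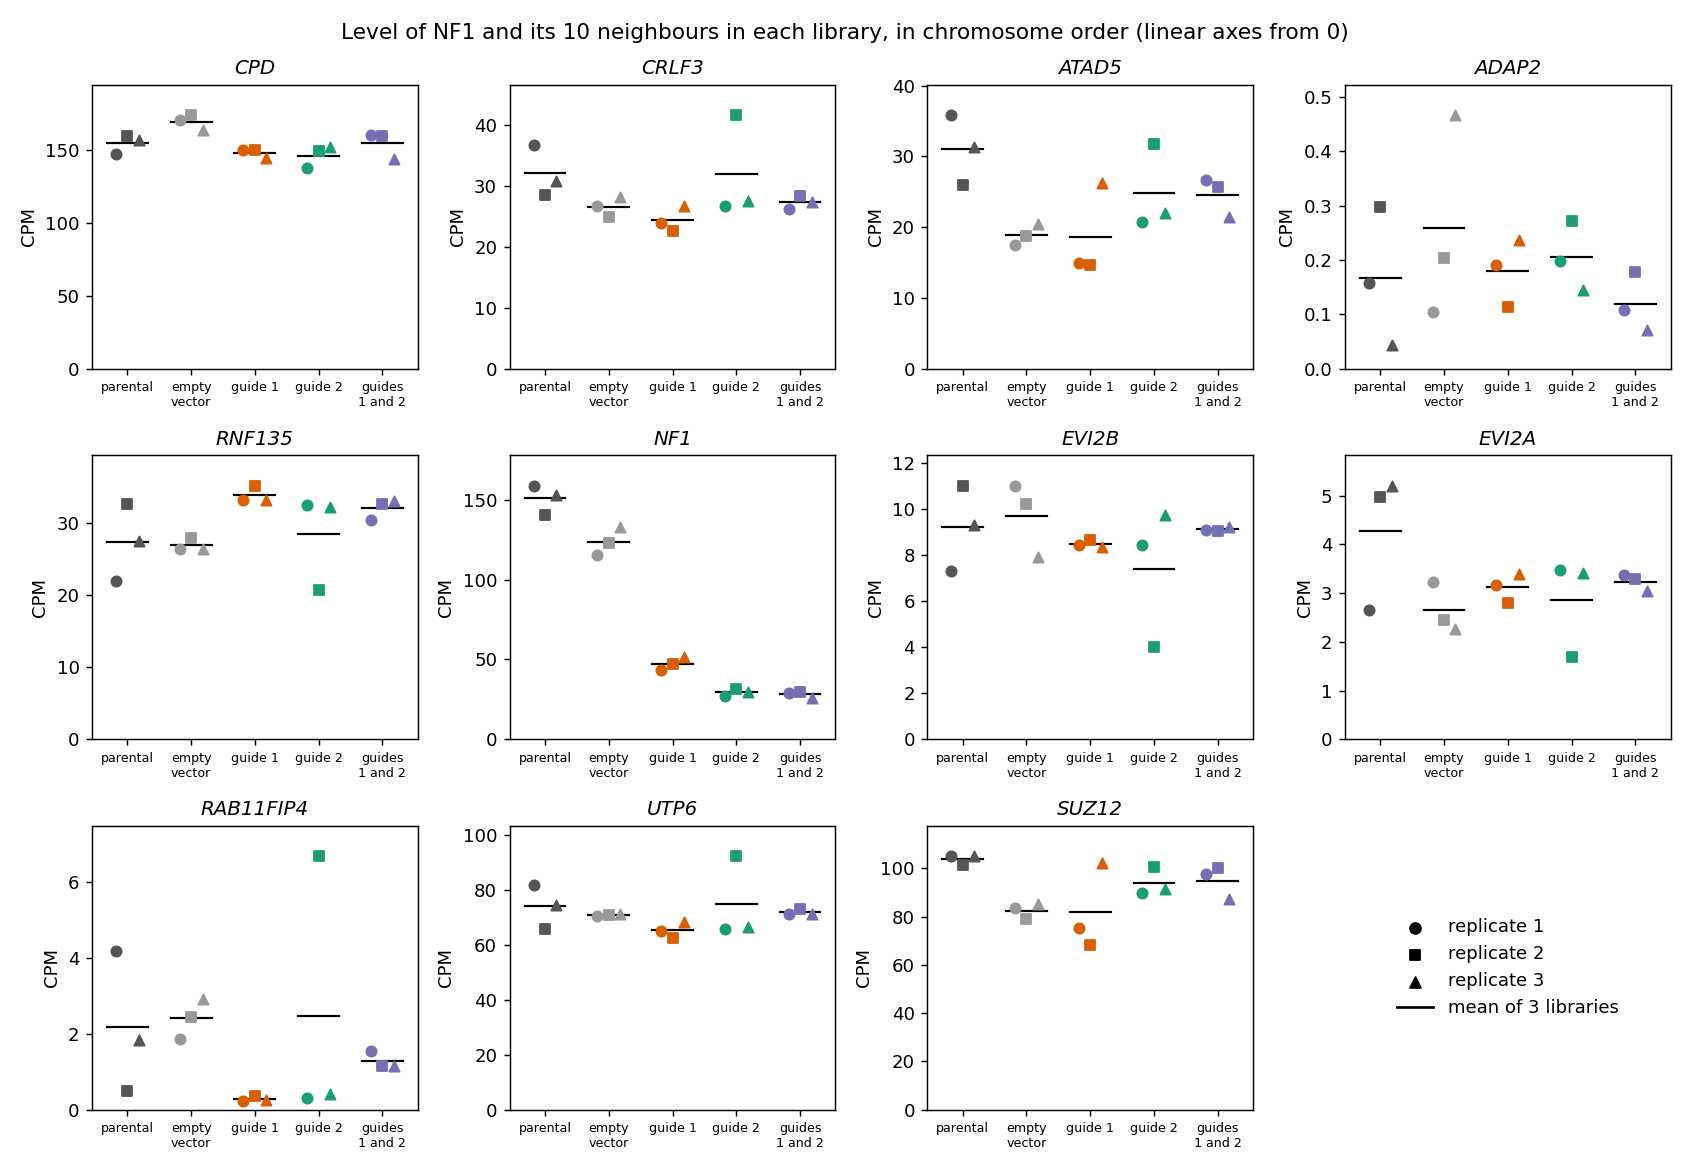
Each panel plots the CPM of a gene, on a linear axis from 0, in the 15 libraries by genotype, in chromosome order. NF1 falls from above 115 CPM to 51.3 CPM or less in the edited lines, while the neighbours overlap between edited and unedited libraries.

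The nested genes lie within the body of NF1. EVI2B encodes a membrane glycoprotein known from leukocytes, where it is needed for granulocyte development. It had 7.31, 11 and 9.31 CPM in parental cells, 11, 10.2 and 7.89 with the empty vector, 8.42, 8.66 and 8.34 with guide 1, 8.44, 3.99 and 9.74 with guide 2, and 9.08, 9.06 and 9.21 with both guides. All groups overlapped with the empty vector, and the lowest library was guide 2 replicate 2. Against the empty vector the log2 fold change was -0.20 (95% interval -0.75 to 0.35, edgeR adjusted p 0.695) for guide 1, -0.40 (-0.95 to 0.16, adjusted p 0.437) for guide 2 and -0.11 (-0.66 to 0.44, adjusted p 0.921) for both guides. Mean EVI2B RNA was thus 87.4%, 76.2% and 94% of the empty-vector mean in lines that had 38.3%, 23.8% and 22.7% of NF1 RNA. Without guide 2 replicate 2 the guide 2 value was -0.12 (-0.47 to 0.22, edgeR adjusted p 0.684).

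EVI2A, named like EVI2B for a viral integration site in mouse leukaemias, encodes another small membrane protein. Its levels were 2.65, 4.98 and 5.2 CPM in parental cells, 3.22, 2.45 and 2.26 with the empty vector, 3.16, 2.8 and 3.4 with guide 1, 3.47, 1.69 and 3.41 with guide 2, and 3.38, 3.28 and 3.04 with both guides. The edited groups overlapped the empty vector, and the lowest library was again guide 2 replicate 2. The log2 fold changes were 0.23 (95% interval -0.39 to 0.85, edgeR adjusted p 0.691), 0.10 (-0.52 to 0.72, adjusted p 0.892) and 0.27 (-0.35 to 0.89, adjusted p 0.771) in the same order of lines. Guide 2 gave 0.35 without its replicate 2 (-0.17 to 0.87, edgeR adjusted p 0.39). Parental against empty-vector cells gave the larger value of 0.66 (0.04 to 1.28, edgeR adjusted p 0.223), which missed the threshold. EVI2A and EVI2B are best known in blood cells, and of the leukocyte markers CD3E had no counts, PTPRC had at most 3 counts in a library, and CD14, LAPTM5 and CORO1A were present. The summed marker level ran from 11.6 to 19.8 CPM in parental cells, 12 to 15.9 with the empty vector, 10.7 to 19.5 with guide 1, 10.5 to 15.9 with guide 2 and 17.9 to 18.3 with both guides, and its part in the EVI2A and EVI2B levels was not tested. In bulk RNA, fewer cells that express a gene and less of its RNA per cell cannot be told apart.

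The third nested gene, OMG, a myelin glycoprotein, had 15 counts over all libraries, between 0 and 4 in each and 0 in 6 of them, and was not tested. The pseudogene AK4P1, inside NF1 on the same strand, had 1.75 ± 0.673 CPM (SD, n = 6) in unedited and 1.56 ± 0.389 CPM (SD, n = 9) in edited libraries. Against the empty vector it had log2 fold changes of -0.61, -0.58 and -0.51, at edgeR adjusted p of 0.257, 0.313 and 0.49. The lowest mean was that of unedited parental cells, at -0.94 against the empty vector (edgeR adjusted p 0.0967), and the edited lines were above parental cells by 0.33, 0.36 and 0.43 (adjusted p 0.516, 0.896 and 0.696).

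RAB11FIP4, the nearest gene after NF1, encodes an effector of RAB11 that acts in endosome recycling and cell division. It had 4.17, 0.501 and 1.84 CPM in parental cells, 1.86, 2.45 and 2.91 with the empty vector, 0.23, 0.367 and 0.269 with guide 1, 0.307, 6.67 and 0.405 with guide 2, and 1.56, 1.14 and 1.16 with both guides. No other neighbour varied as much over the libraries: guide 2 replicate 2 was the highest of the 15 libraries while guide 2 replicates 1 and 3 were among the lowest. The guide 1 libraries, with 12 to 29 counts each, were all below the empty vector, as were the 3 with both guides. Against the empty vector the log2 fold change was -3.04 for guide 1 (95% interval -5.28 to -0.81, edgeR adjusted p 0.105), 0.00 for guide 2 (-1.96 to 1.96, adjusted p 1) and -0.93 for both guides (-2.94 to 1.09, adjusted p 0.752).

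Whether RAB11FIP4 was called depended on the fit. For guide 1 against the empty vector it was called by DESeq2 with all libraries (-3.08, adjusted p 0.024) and by edgeR when those 6 libraries were fitted alone (-3.03, adjusted p 0.000874), where 11.1% and 15.8% of all genes were called. Both guides against the empty vector, fitted alone, also gave a call (-0.94, edgeR adjusted p 0.0154, with 18.7% of all genes called). Without guide 2 replicate 2 edgeR gave -3.05 for guide 1 (95% interval -4.28 to -1.82, adjusted p 0.00266) and -2.77 for guide 2 (-4.18 to -1.36, adjusted p 0.013) against the empty vector, both past the threshold. For both guides the value was -0.94 (edgeR adjusted p 0.302). Against parental cells it was -2.85 for guide 1 (edgeR adjusted p 0.00969) and, for guide 2, -2.58 (adjusted p 0.0367) in place of 0.18 with all libraries. The edited lines averaged against the unedited groups gave -2.16 (95% interval -2.92 to -1.39, edgeR adjusted p 0.0014), with 18% of all genes called. With all libraries that value was -1.23 (edgeR adjusted p 0.342). In the fit without guide 2 replicate 2, 18.1% of all genes were called for guide 1 and 14.5% for guide 2 against the empty vector.

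RAB11FIP4 was low in the same libraries in which TP63 and CDH1 were low. Those are only some of the listed markers, and ITGB4, LAMB3, KRT8 and KRT18 were present in every library. The 3 guide 1 libraries, guide 2 replicates 1 and 3 and parental replicate 2 had 0.501 CPM of RAB11FIP4 or less, and the other 9 libraries had 1.14 CPM or more. The sum of the 6 basal markers (KRT5, KRT14, KRT17, TP63, ITGB4 and LAMB3) was between 1680.6 and 2724.4 CPM in the low libraries. It was 5280.9 and 3381.0 CPM in parental replicates 1 and 3, 4554.9 to 6560.5 with the empty vector, 9093.6 in guide 2 replicate 2 and 2536.0 to 2752.2 with both guides. The 4 epithelial markers (EPCAM, CDH1, KRT8 and KRT18) summed to 255.0 to 279.8 CPM with guide 1 and 398.8 to 486.2 CPM with the empty vector, and EPCAM had 102.6 CPM in guide 2 replicate 2 against 29.1 CPM or less elsewhere. The part of these markers in the RAB11FIP4 difference was not tested. Parental replicate 2, with NF1 at 140.6 CPM, was the 1 unedited library among those low in RAB11FIP4, and guide 2 replicate 2, with NF1 at 31.4 CPM, was the 1 single-guide library that was not low.

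RNF135 and ADAP2 lie just before NF1. RNF135, also called Riplet, is a ubiquitin ligase that activates the viral RNA sensor RIG-I. It had 22, 32.7 and 27.6 CPM in parental cells, 26.4, 28 and 26.4 with the empty vector, 33.3, 35.2 and 33.2 with guide 1, 32.5, 20.8 and 32.2 with guide 2, and 30.4, 32.7 and 33.1 with both guides. Of the 9 edited libraries 8 were above all 3 empty-vector libraries, the exception being guide 2 replicate 2, which was the lowest of all 15. The log2 fold change was 0.32 (95% interval -0.03 to 0.67, edgeR adjusted p 0.277) for guide 1, 0.07 (-0.28 to 0.42, adjusted p 0.857) for guide 2, which was 0.24 (-0.02 to 0.50, adjusted p 0.224) without guide 2 replicate 2, and 0.23 (-0.12 to 0.58, adjusted p 0.599) for both guides. For parental cells the value was 0.00 (-0.35 to 0.35, edgeR adjusted p 0.994). With all 15 libraries the mean of the edited lines was above that of the unedited groups by 0.21 (-0.02 to 0.44, edgeR adjusted p 0.355), which missed the threshold. Without guide 2 replicate 2 that difference was 0.26 (0.11 to 0.42, edgeR adjusted p 0.0236), in a fit that called 18% of all genes in that comparison.

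Of 10 genes of RIG-I signalling, 2 fell in guide 1 against empty-vector cells by edgeR and 0 rose, where 5.88% of all genes were called. IFIH1, which encodes the RNA sensor MDA5, fell from 8.94 ± 1.95 to 3.09 ± 0.281 CPM (SD, n = 3 each, adjusted p 0.0486), and TRAF3, a signalling adaptor, fell from 68.2 ± 3.27 to 50 ± 4.11 CPM (SD, n = 3 each, adjusted p 0.0216). The median log2 fold change of the 10 was -0.11, beside 0.02 over all genes. None of the 10 was called for guide 2 or for both guides by edgeR. TRAF3 was also lower in the average of the edited lines than in that of the unedited groups. Its log2 fold change there was -0.29 (edgeR adjusted p 0.0481, with 1.51% of all genes called). In parental against empty-vector cells MAVS, the mitochondrial adaptor of RIG-I, rose by 0.23 on the log2 scale (edgeR adjusted p 0.0401). Summed over 10 interferon-induced genes, guide 2 replicate 2 had 135.7 CPM and the other guide 2 libraries 258.0 and 286.5 CPM, so this sum was low in the library in which RNF135 was low. The guide 1 libraries had 249.0 to 281.0 CPM and the empty-vector libraries 188.1 to 211.4 CPM, with no gene of that list called by edgeR in any comparison. The part of this in the RNF135 levels was not tested.

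ADAP2, which turns off the small GTPase ARF6 at the plasma membrane, was barely detected. Its counts were 9, 19 and 2 in parental cells, 6, 11 and 25 with the empty vector, 10, 9 and 15 with guide 1, 11, 15 and 10 with guide 2, and 5, 10 and 4 with both guides. The empty-vector libraries alone spanned 0.105 to 0.466 CPM, a range that held every edited library except guides 1 and 2 replicate 3, at 0.0715 CPM. The log2 fold changes were -0.54 (95% interval -1.86 to 0.78), -0.35 (-1.67 to 0.96) and -1.12 (-2.52 to 0.29), with edgeR adjusted p of 0.658, 0.812 and 0.495. Without guide 2 replicate 2 the guide 2 value was -0.62 (-2.08 to 0.84, edgeR adjusted p 0.616). With few counts and a wide spread between replicates these intervals were wide, and each of them held 0.

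Among 10 genes of RAB11 and ARF6 trafficking, to which RAB11FIP4 and ADAP2 belong by function, RAB25 had the clearest difference. RAB25, an epithelial relative of RAB11A, had 1.75, 1.73 and 3.86 CPM with the empty vector, at most 0.038 CPM in the guide 1 libraries and at most 0.0145 CPM in the guide 2 libraries (edgeR adjusted p 0.00392 and 0.00379). It also fell in parental cells, with 0, 0.0627 and 0.39 CPM (edgeR adjusted p 0.0162), and unlike RAB11FIP4 it stayed low in guide 2 replicate 2, which had 0 counts of it. RAB11A fell by 0.26 on the log2 scale with guide 1 (edgeR adjusted p 0.0252) and by 0.32 in parental cells (adjusted p 0.0131). RAB11B rose by 0.35 with guide 1 and 0.33 with guide 2 (edgeR adjusted p 0.0244 and 0.0355). With both guides none of the 10 was called by edgeR.

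ATAD5 and CRLF3 lie further before NF1. ATAD5 heads a clamp-unloading complex that removes PCNA from DNA after replication. It had 35.8, 26 and 31.3 CPM in parental cells, 17.5, 18.8 and 20.4 with the empty vector, 15, 14.6 and 26.3 with guide 1, 20.8, 31.7 and 22 with guide 2, and 26.6, 25.7 and 21.4 with both guides. Parental cells were above the empty vector in all 3 libraries, and so were guide 2 and both guides. Against the empty vector the edited lines differed by -0.03 (95% interval -0.51 to 0.44, edgeR adjusted p 0.954), 0.38 (-0.10 to 0.85, adjusted p 0.39) and 0.35 (-0.12 to 0.83, adjusted p 0.534) on the log2 scale. Guide 2 gave 0.15 without its replicate 2 (-0.30 to 0.60, edgeR adjusted p 0.711). The larger difference was between the unedited groups, where parental cells were higher by 0.68 (0.21 to 1.16, edgeR adjusted p 0.101).

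The 5 libraries lowest in ATAD5, which were the 3 with the empty vector and guide 1 replicates 1 and 2, were also the 5 lowest in genes of dividing cells. The 10 proliferation genes summed to 3483.7 to 3884.6 CPM in parental cells and 2117.0 to 2560.2 CPM with the empty vector, to 2061.3 and 2043.3 CPM in guide 1 replicates 1 and 2 but 3823.9 CPM in guide 1 replicate 3, and to between 3315.5 and 3532.2 CPM in the other 6 edited libraries. Guide 1 replicate 3 was likewise the highest of its group for ATAD5. Of these genes TOP2A and CDK1, which act in mitosis, rose in guide 2 (by 0.81 and 0.86 on the log2 scale, edgeR adjusted p 0.0445 and 0.0211) and in parental cells (by 0.91 and 0.73, adjusted p 0.0264 and 0.0399) against the empty vector. The part of proliferation in the ATAD5 levels was not tested. Without guide 1 replicate 3, ATAD5 was lower in guide 1 than in parental cells by edgeR (log2 fold change -1.04, adjusted p 0.00776), in place of -0.72 (adjusted p 0.171), and higher in parental than in empty-vector cells (0.69, adjusted p 0.027), in a fit that called 7.64% and 7.22% of all genes there. Without guide 2 replicate 2 those values were -0.71 (edgeR adjusted p 0.028) and 0.67 (adjusted p 0.0321), with 14.5% and 13.9% of all genes called.

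The partners of ATAD5 in PCNA handling, a list of 10 that includes PCNA, the replication factor C subunits and USP1, gave 0 calls by edgeR in each comparison. Their median difference from the empty vector was -0.04, 0.24 and 0.26 on the log2 scale for guide 1, guide 2 and both guides, and 0.22 for parental cells, beside 0.02, 0.03, 0.00 and 0.01 over all genes. The number with a positive sign was 1, 8, 9 and 10 of 10.

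CRLF3, a cytosolic protein with a domain resembling cytokine receptors, had 36.8, 28.5 and 30.9 CPM in parental cells, 26.7, 24.9 and 28.2 with the empty vector, 23.9, 22.6 and 26.7 with guide 1, 26.7, 41.6 and 27.6 with guide 2, and 26.3, 28.4 and 27.4 with both guides. The highest library was guide 2 replicate 2 and the lowest was guide 1 replicate 2. Every edited line overlapped the empty vector, with log2 fold changes of -0.13 (95% interval -0.46 to 0.19, edgeR adjusted p 0.653), 0.25 (-0.08 to 0.58, adjusted p 0.405) and 0.02 (-0.31 to 0.34, adjusted p 0.985). Leaving out guide 2 replicate 2 brought the guide 2 value to 0.00 (-0.23 to 0.23, edgeR adjusted p 0.999). Against parental cells guide 1 was lower by -0.37 (-0.70 to -0.05, edgeR adjusted p 0.219), which became a call without guide 2 replicate 2 (-0.37, adjusted p 0.0255, with 14.5% of all genes called).

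SUZ12, a core subunit of Polycomb repressive complex 2 (PRC2), which methylates histone H3 to silence genes, and UTP6, a part of the small-subunit processome that makes 18S ribosomal RNA, lie well after NF1. SUZ12 had 104.9, 101.3 and 104.9 CPM in parental cells, 83.6, 78.8 and 85 with the empty vector, 75.3, 68.2 and 102.2 with guide 1, 89.6, 100.4 and 91.3 with guide 2, and 97.4, 100 and 87.1 with both guides. Guide 2, both guides and parental cells were above the empty vector in every library, and guide 1 overlapped it because replicate 3 stood far above replicates 1 and 2. The log2 fold changes were -0.02 (95% interval -0.27 to 0.23, edgeR adjusted p 0.936), 0.17 (-0.08 to 0.42, adjusted p 0.463) and 0.18 (-0.07 to 0.43, adjusted p 0.557), and 0.30 for parental cells (0.05 to 0.55, adjusted p 0.168). Leaving out guide 2 replicate 2 brought the guide 2 value to 0.10 (-0.16 to 0.36, edgeR adjusted p 0.646). The 5 libraries lowest in SUZ12 were the same 5 that had the lowest proliferation sums, whose part in the SUZ12 level was not tested.

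Without guide 1 replicate 3, SUZ12 was called by edgeR in 4 comparisons. It was lower in guide 1 than in parental cells (log2 fold change -0.51, adjusted p 0.00298) and than in guide 2 (-0.37, adjusted p 0.0231), higher with both guides than with guide 1 (0.39, adjusted p 0.0155), and higher in parental than in empty-vector cells (0.31, adjusted p 0.0209). In that fit 7.64%, 3.31%, 4.61% and 7.22% of all genes were called in these comparisons. No edited line was called against the empty vector in that fit. The partial copy SUZ12P1, with which the printed stretch is shared, was much lower, at 4.33 to 7.63 CPM over the 15 libraries against 68.2 to 104.9 CPM for SUZ12. Its log2 fold changes against the empty vector were 0.00, 0.31 and 0.20 (edgeR adjusted p 0.997, 0.301 and 0.634).

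Of 10 other PRC2 subunits and cofactors, EZH2, the methyltransferase of the complex, rose in guide 2 against empty-vector cells, from 48.9 ± 2.02 to 74.5 ± 11.8 CPM (SD, n = 3 each, edgeR adjusted p 0.0472). It was the only one of the 10 called by edgeR in the comparisons of edited lines and parental cells with the empty vector. The median of the 10 was 0.02, 0.08 and -0.01 on the log2 scale for guide 1, guide 2 and both guides, beside 0.02, 0.03 and 0.00 over all genes.

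UTP6 was among the steadiest of the neighbours. It had 81.8, 65.7 and 74.4 CPM in parental cells, 70.5, 70.8 and 71.2 with the empty vector, 64.9, 62.6 and 68.4 with guide 1, 65.6, 92.1 and 66.6 with guide 2, and 71.2, 72.9 and 71.3 with both guides. The 3 empty-vector libraries were so alike that guide 1 was below all of them with a difference of only -0.13 (95% interval -0.37 to 0.12, edgeR adjusted p 0.553). Guide 2 differed by 0.06 (-0.18 to 0.31, adjusted p 0.819) and both guides by 0.00 (-0.25 to 0.24, adjusted p 0.997). The high library was again guide 2 replicate 2, and without it the guide 2 value was -0.13 (-0.30 to 0.04, edgeR adjusted p 0.314), of opposite sign. Of 10 other small-subunit processome genes 0 were called by edgeR in each comparison, with medians of -0.03, 0.17 and 0.09 against the empty vector.

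CPD encodes carboxypeptidase D, a membrane enzyme of the trans-Golgi network that trims basic residues from the ends of proteins, and is the neighbour farthest from NF1. It came closest to the threshold. It had 147.4, 160 and 157.2 CPM in parental cells, 171.1, 174.1 and 164.2 with the empty vector, 150.4, 150.1 and 144.6 with guide 1, 137.6, 149.4 and 152.1 with guide 2, and 160.4, 160 and 144.1 with both guides. All 12 other libraries were below the 3 with the empty vector, the parental ones included. Against the empty vector the log2 fold change was -0.20 (95% interval -0.34 to -0.07, edgeR adjusted p 0.0691) for guide 1, -0.23 (-0.36 to -0.10, adjusted p 0.0576) for guide 2 and -0.15 (-0.29 to -0.02, adjusted p 0.265) for both guides.

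For unedited parental cells the CPD value was similar, at -0.16 (95% interval -0.30 to -0.03, edgeR adjusted p 0.151), and the edited lines differed from parental cells by -0.04 (-0.17 to 0.09, adjusted p 0.709), -0.06 (-0.20 to 0.07, adjusted p 0.92) and 0.01 (-0.12 to 0.14, adjusted p 0.972). CPD was called against the empty vector by DESeq2 (guide 1 adjusted p 0.00657, guide 2 adjusted p 0.00288) and by edgeR without guide 2 replicate 2 (-0.22, adjusted p 0.0271, and -0.26, adjusted p 0.024). Without guide 1 replicate 3 the guide 2 value for CPD was also called by edgeR (-0.23, adjusted p 0.0457). Of 10 other metallocarboxypeptidases 5 were tested. CPA4, an exopeptidase of the carboxypeptidase A family, rose in guide 1, guide 2 and parental cells alike, from 8.78 ± 2.23 CPM with the empty vector to 22.7 ± 5.1, 22.3 ± 8 and 23.1 ± 6.77 CPM (SD, n = 3 each, edgeR adjusted p 0.0159, 0.0209 and 0.0187). No other tested member of that list was called in those comparisons.

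Across the 10 neighbours, guide 2 replicate 2 was the most extreme library. It was the highest of 15 for RAB11FIP4, CRLF3 and UTP6 and the lowest for EVI2B, EVI2A and RNF135. Its median absolute log2 ratio to the median library was 0.61 over the 10 genes, whereas in the other 14 libraries it was 0.03 to 0.30. Guide 1 replicate 2 came next by number of extremes, being highest for RNF135 and lowest for ATAD5, CRLF3, UTP6 and SUZ12, but its median ratio was 0.24.

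**Figure D3:**
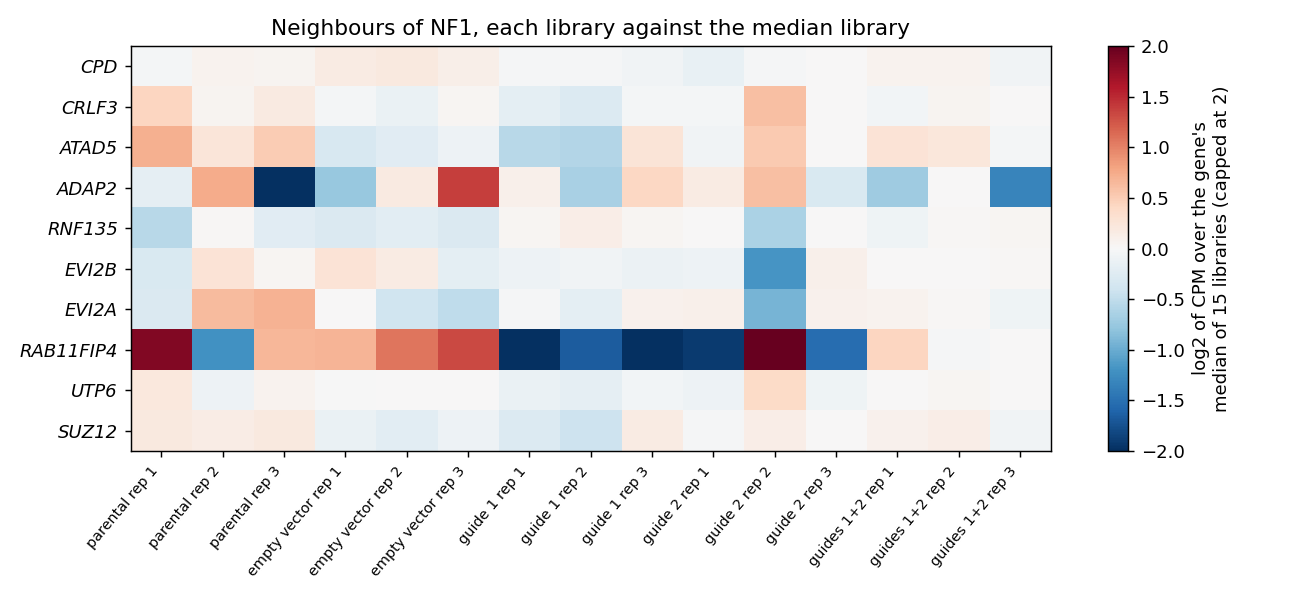
Colours give the log2 ratio of each library (columns) to the median of the 15 libraries for each of the 10 neighbours (rows), capped at 2. Guide 2 replicate 2 departs in both directions, most for RAB11FIP4 (2.521), EVI2B (-1.183) and EVI2A (-0.934). For RAB11FIP4 the guide 1 libraries, guide 2 replicates 1 and 3 and unedited parental replicate 2 are negative, between -2.338 and -1.213. The 3 libraries with both guides are among the palest.

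The wider neighbourhood held few calls. Within 2 Mb of NF1, 53 of 179 annotated genes were tested, NF1 excluded. In guide 1 against empty-vector cells edgeR called 2 of the 53 (3.77%, against 5.88% of all genes), and both fell. CORO6, a coronin that binds actin, fell from 1.75 ± 0.43 to 0.369 ± 0.0978 CPM (SD, n = 3 each, adjusted p 0.009), and MYO18A, an unconventional myosin, from 44.4 ± 2.31 to 34.4 ± 2.63 CPM (SD, n = 3 each, adjusted p 0.0204). Relative to the start of NF1 they begin at -1472.0 and -1914.5 kb, farther off than any of the 10 neighbours. CORO6 was also called when the edited lines were averaged and set against the unedited groups (log2 fold change -1.29, edgeR adjusted p 0.0246).

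In guide 2 and in both guides against the empty vector edgeR called 0 of the 53. The median log2 fold change in the window was -0.03, 0.02 and 0.04 for guide 1, guide 2 and both guides, beside 0.02, 0.03 and 0.00 over all genes. The middle 50% of the window's genes lay between -0.20 and 0.12 for guide 1, between -0.14 and 0.11 for guide 2 and between -0.15 and 0.18 for both guides. Of a list of 20 other genes around NF1, 17 were tested and 0 were called by edgeR in each comparison. MYO1D, a myosin after NF1 that was picked out after its values were seen, had the largest difference of that list with guide 1, from 50 to 11.7 CPM (log2 fold change -2.11, edgeR adjusted p 0.0696).

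**Figure D4:**
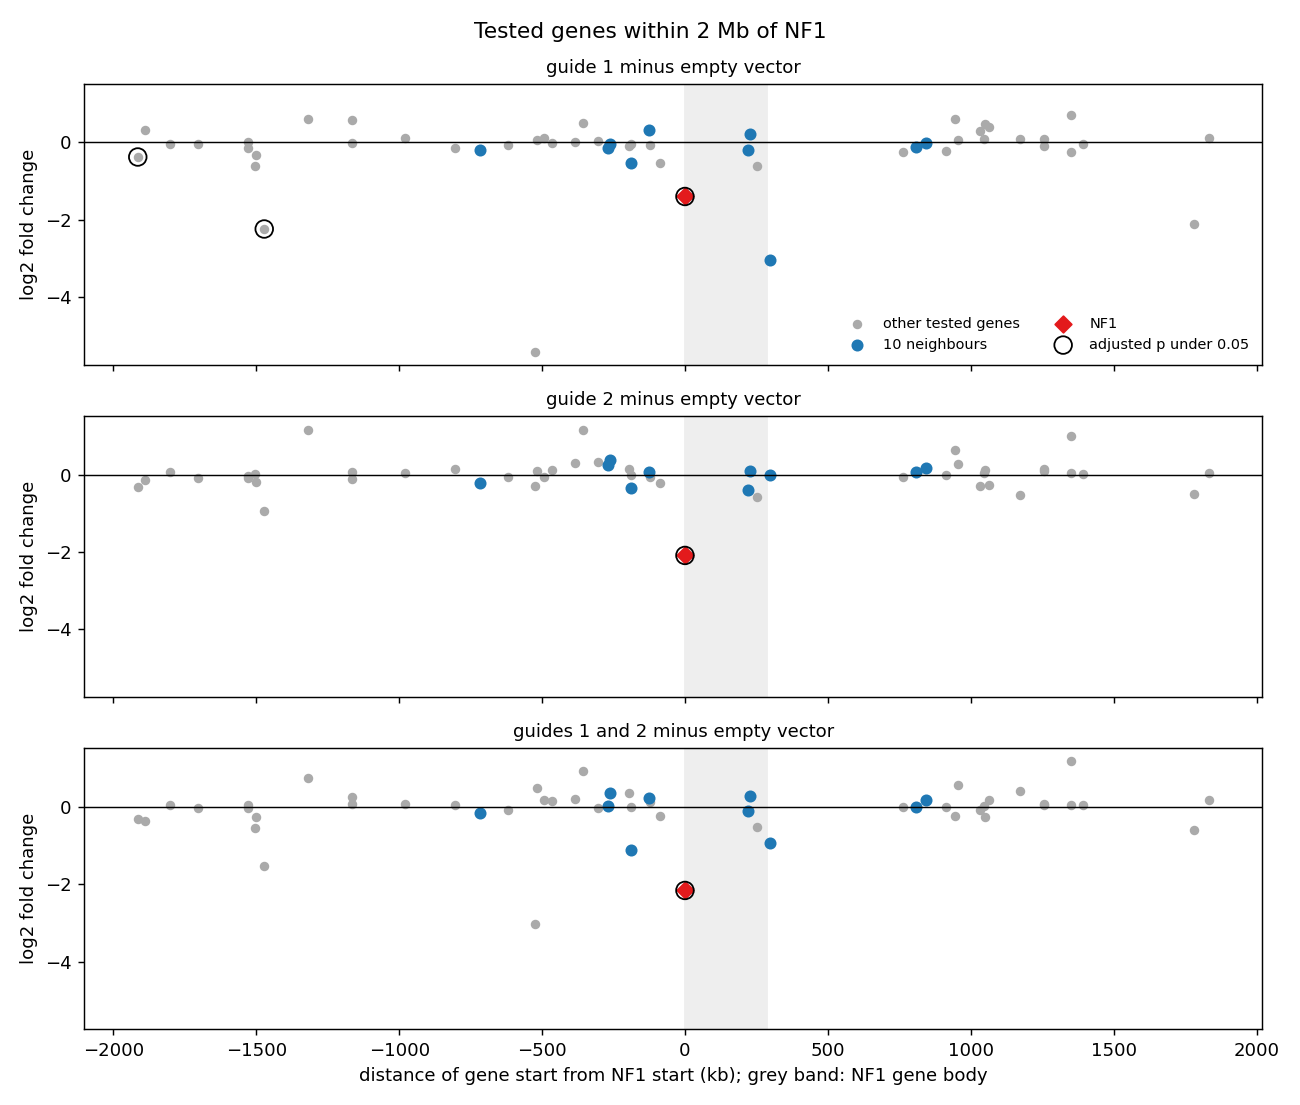
Each point is a tested gene within 2 Mb of NF1, with the distance of its start from that of NF1 in kb on the horizontal axis and the edgeR log2 fold change against empty-vector cells on the vertical axis, in 1 panel per edited line. Ringed points passed an adjusted p of 0.05: NF1 in all 3 panels, and CORO6 and MYO18A in the guide 1 panel.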

How the data were processed

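Poly(A) RNA was turned into sequencing libraries with the KAPA mRNA HyperPrep kit, per the labels' protocols. Trim Galore 0.6.0, STAR 2.7.8a and GRCh38 are named in the submitters' processing notes; how reads were counted, on which annotation and with which strand setting is not given in the sources used here. The authors deposited whole-number counts per gene for 15 libraries and a table of CPM. Recomputing CPM from those counts and their totals gave the deposited values within 4.91e-11. Of 60721 identifiers, 60357 were given a symbol and 58503 have a GENCODE 29 position.

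Counts were tested with edgeR 4.0.16 (R 4.3.3): filterByExpr by genotype (17457 genes), TMM scaling (factors 0.9725 to 1.0167) and a quasi-likelihood group-means model over all 15 libraries (10 residual degrees of freedom). P-values were two-sided and adjusted by Benjamini-Hochberg over all tested genes, and called under 0.05. The standard error is |log2 fold change| over the square root of F, and 95% intervals use the t distribution with the moderated degrees of freedom. Fold changes are first group minus second, in log2.

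The median library total was 55942785 counts. No replicate pair agreed within sampling noise (24.6% to 76.8% of genes beyond it, 5% by chance). On simulated counts with 200 genes changed 2-fold in guide 1 against empty vector (17181 genes tested), 46% of the changed genes were recovered and 4% of the calls were false. Transcript windows of 50 bases were compared with all GENCODE 29 transcripts, on the same strand and on either strand.

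The members were chosen by position, and the locus list by textbook order, not for how they moved. Earlier results of these data were known when the members and all lists were chosen, so the choice was not blind. The rule for named genes was all 10 neighbours and NF1, those of the locus list that were called, and at most 4 called genes of each other list. Outside that rule, OMG and AK4P1 were described as lying inside NF1, and SUZ12P1 and TEFM for shared sequence. MYO1D was picked after its values were seen. Several other genes, mostly markers such as TP63 and KRT5, were also named without a call. Equal replicate numbers were not taken to pair the libraries: deviations of same-numbered libraries correlated at -0.050 on average over 30 pairs (-0.750 to 0.280). Alternatives were RLE scaling, no filter, a replicate block, DESeq2 1.42.0, a fit of the compared groups alone, the removal of each library, and a 5 Mb window.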

Additional observations from a re-analysis of the deposited data

Results flagged for a closer look

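The edited lines differed from each other in the gene between these neighbours, NF1 itself, by a test of the difference between lines. Guide 1 libraries held more NF1 RNA than guide 2 libraries, with a log2 fold change of 0.69 (95% interval 0.50 to 0.88, edgeR adjusted p 0.0121), with all 3 guide 1 libraries (43.6, 47.3 and 51.3 CPM) above all 3 guide 2 libraries (27, 31.4 and 29.8 CPM). With both guides it was lower than with guide 1, with a log2 fold change of -0.76 (95% interval -0.96 to -0.57, edgeR adjusted p 0.00411), and again the libraries did not overlap (28.9, 29.4 and 26 CPM with both guides). With all 15 libraries in the fit, edgeR called no neighbour between edited lines (0 of 10 in each of the comparisons; 2, 0 and 0 at an unadjusted p under 0.05; 0 by DESeq2). Other fits called some neighbours. Without guide 1 replicate 3, SUZ12 was called in guide 1 against guide 2 (-0.37, edgeR adjusted p 0.0231) and in both guides against guide 1 (0.39, adjusted p 0.0155). In that fit 3.31% and 4.61% of all genes were called there. RAB11FIP4 was called in both guides against guide 1 with those groups fitted alone (2.11, edgeR adjusted p 0.00305), where 7.67% of all genes were called. With all libraries the lowest adjusted p values in guide 1 against guide 2 were those of RAB11FIP4, at -3.04 in guide 1 against guide 2 (edgeR adjusted p 0.317) and -0.28 without guide 2 replicate 2 (adjusted p 0.953), and CRLF3, at -0.38 (adjusted p 0.321) and -0.15 without that library (adjusted p 0.772). Dixon's test for a single outlying library was not run, since each group has 3 libraries.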

How the results depend on the processing

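The count of neighbours called was 0 of 10 in all 11 comparisons without a filter on low counts and with the replicate block. Against the empty vector, RLE scaling called 1 for guide 2 (CPD), and DESeq2 called 2 for guide 1 (CPD and RAB11FIP4) and 1 for guide 2 (CPD). DESeq2 also called 1 for parental against empty vector (ATAD5) and 1 for the mean of the edited lines against that of the unedited groups (CPD). With only the compared groups in the fit, edgeR called 2 for guide 1 (RAB11FIP4 and RNF135), 3 of 9 tested for both guides (ATAD5, RAB11FIP4 and RNF135) and 2 for parental cells (ATAD5 and SUZ12) against the empty vector, and 1 of 9 for both guides against guide 1 (RAB11FIP4), in fits that called 15.8%, 18.7%, 6.85% and 7.67% of all genes. RLE scaling called 3.97% of all genes for guide 2, and DESeq2 11.1%, 7.88%, 9.39% and 5.33% in its comparisons. Leaving out 1 library at a time gave 0 to 3 calls for the mean of the edited lines and for guide 1 against parental cells, 0 to 2 for guide 1, guide 2 and parental cells against the empty vector, 0 to 1 for guide 1 against guide 2, guide 2 against parental cells and both guides against guide 1, and 0 in the other 3 comparisons. Every such call came from leaving out guide 2 replicate 2 or guide 1 replicate 3. Without guide 2 replicate 2, the share of all genes called was 18% for the mean of the edited lines. It was 14.5% for guide 1 and 5.96% for guide 2 against parental cells, and 18.1%, 14.5% and 13.9% for guide 1, guide 2 and parental cells against the empty vector. Without guide 1 replicate 3 it was 7.64% for guide 1 against parental cells, and 6.1% for guide 2 and 7.22% for parental cells against the empty vector. It was 3.31% for guide 1 against guide 2 and 4.61% for both guides against guide 1. RAB11FIP4 in guide 2 against parental cells turned from 0.18 to -2.58 without guide 2 replicate 2, and the highest value with 1 library left out was 1.10, without parental replicate 1. The causes of these shifts were not tested. Fits of the compared groups alone or with a library left out hold fewer samples than the main fit.

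Of 2186 values of single genes recomputed under 20 alternatives, 79 changed sign, 2 of them among values larger than 1 standard error, and 33 passed the threshold, where 0 had in edgeR with all 15 libraries. With the replicate number as a block, 0 of 10 neighbours were called in each comparison, and the pairing changed no call. Only 1 of 15 libraries correlated best with its own number, and every empty-vector and guide 1 pair had a correlation of at least 0.136. In a 5 Mb window (121 genes tested) edgeR called 5 genes for guide 1, 1 for guide 2 and 0 for both guides against the empty vector, and 3 for parental cells. The calls were 4.13%, 0.826%, 0% and 2.48% of the window, beside 5.88%, 3.94%, 0.962% and 4.37% of all tested genes. Low counts limit ADAP2, with 2 to 25 counts a library, and OMG, with 0 to 4.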
